A study of Mus musculus with 24 samples.

Results

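The nuclear genes for the subunits of respiratory chain complexes I to IV were followed in 24 bulk RNA-seq libraries of sorted mouse lung macrophages. Members were taken by name and not by any measured value: protein-coding genes named as Ndufa, Ndufb, Ndufc, Ndufs or Ndufv with a number, Sdha to Sdhd, 8 Uqcr genes, and Cox4 to Cox8 genes, present in both deposited count tables. This gave 67 genes of the 49022 shared by the tables. Placed by name, 37 were in complex I, 4 in complex II, 8 in complex III and 18 in complex IV. Ndufa4, found in complex IV, is therefore counted here among the accessory subunits of complex I. A low-count filter left 62 of them for testing in every comparison. The other 5 were Ndufa4l2, Cox4i2, Cox7b2, Cox8b and Cox8c, and of these Cox7b2 and Cox8c had 0 counts in all 24 libraries.

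The study instilled bleomycin, a drug that injures the lung, at 3 µg per g body weight, or PBS as the control, into the airways of wild-type C57BL/6J mice or of Spp1-EGFP knock-in mice, in which green fluorescence reports the osteopontin gene Spp1. Lung macrophages were sorted as interstitial macrophages (IMs, CD11b+ and SiglecF-) or alveolar macrophages (AMs, CD11b- and SiglecF+), and poly(A) RNA was sequenced with 3 libraries in each of 8 groups. The IM groups were wild-type after PBS at day 7, wild-type after bleomycin at day 7, knock-in EGFP- and EGFP+ after bleomycin at day 7, and knock-in EGFP+ after bleomycin at day 14. The AM groups were all knock-in and EGFP+: PBS at day 7, bleomycin at day 14 and bleomycin at day 30. There was therefore no knock-in or EGFP-sorted IM group after PBS, no EGFP- AM group and no AM group at day 7 after bleomycin. The labels do not say which libraries came from separate animals or whether animals were pooled, nor give age or sex, so p-values measure the spread between these libraries only.

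The respiratory chain sits in the inner mitochondrial membrane. Complex I oxidises NADH and complex II oxidises succinate, complex III passes the electrons to cytochrome c, and complex IV gives them to oxygen; complexes I, III and IV pump protons that drive ATP synthase. Complex II is encoded wholly in the nucleus, whereas the other 3 combine nuclear subunits with ones made in the mitochondrion, so their assembly draws on both genomes. Several complex IV subunits have a common form and a second form that is typical of muscle, testis or lung.

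Libraries held 13450053 to 24580620 counts, and the 67 members took 0.262% to 0.577% of them. Itgam, the gene for CD11b, averaged 218 to 379 CPM (counts scaled to each library's total) in the IM groups and 7.32 to 26.1 in the AM groups, and Siglecf averaged 7.42 to 25.1 CPM in IMs and 122 to 415 in AMs, as the gates imply. Replicates of the 2 day 14 groups differed far more than the others, with a mean chi-square per gene of 12.6 to 117 between pairs of libraries against 2.89 to 9.56 elsewhere, so the counts of members called in comparisons with day 14 are also given with single libraries left out. The day 14 and day 30 libraries were counted in a second table with another gene annotation: 49 members had the same coordinates and overlapping genes in both. A comparison across the tables cannot be told apart from a difference between the tables.

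Stretches upstream of 5 members are shown because the results below set members that moved together beside ones that did not. For each complex, members were considered that had a promoter window and whose 100 bases before the start lay outside that gene's own span in both tables. Of these, the one with the largest rise in injured wild-type IMs is shown, and Ndufb11, which did not pass the test there. Sdhc and Uqcrb, with the largest rises in complexes II and III, had no window. They are read 5′ to 3′ on the gene's strand from RefSeq's GRCm38.p6 promoters, and capitals mark a searched motif on either strand.
Ndufb6, chr4:40279422-40279521, minus strand: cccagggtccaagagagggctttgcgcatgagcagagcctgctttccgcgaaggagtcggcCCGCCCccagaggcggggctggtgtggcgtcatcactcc
Sdhd, chr9:50603850-50603949, minus strand: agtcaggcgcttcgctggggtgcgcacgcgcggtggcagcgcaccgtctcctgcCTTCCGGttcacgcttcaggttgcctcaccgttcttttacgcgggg
Uqcr10, chr11:4704345-4704444, minus strand: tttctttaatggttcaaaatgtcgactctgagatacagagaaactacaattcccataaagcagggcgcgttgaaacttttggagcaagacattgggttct
Cox7b, chrX:106015600-106015699, plus strand: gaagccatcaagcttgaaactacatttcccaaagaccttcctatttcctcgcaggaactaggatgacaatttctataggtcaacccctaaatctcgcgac
Ndufb11, chrX:20617620-20617719, minus strand: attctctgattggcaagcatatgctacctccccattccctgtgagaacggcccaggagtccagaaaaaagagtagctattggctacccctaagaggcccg
The Ndufb6 stretch holds the SP1 letters GGGCGG and the Sdhd stretch the ETS letters CCGGAAG; the other 3 hold none of the 4 motifs searched. Over whole windows of 300 bases, 250 before and 50 after the start, 53 members had 55 windows. The YY1 letters AAGATGG were in 8 of these (14.5%) and in 6.87% of the 13356 windows of tested genes. CCGGAAG was in 11 (20%, against 16.4%), the estrogen-related receptor letters AAGGTCA in 4 (7.27%, against 3.38%) and GGGCGG in 23 (41.8%, against 59.4%). Both strands were read, none of the 4 words contains another, and the mean GC content was 56.9% in the members' windows and 60.1% in those of tested genes. These are matches of letters, not sites of binding, and no value here ties them to the changes below.

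Summed over all 67 genes, the nuclear subunits were lowest in uninjured wild-type IMs and in EGFP- IMs, and highest in both day 14 groups. The 3 wild-type PBS IM libraries held 2834, 2620 and 2933 CPM, and the EGFP- IM libraries at day 7 held 2640, 2915 and 2949. Wild-type IMs after bleomycin held 4575, 4395 and 4059 CPM, and EGFP+ IMs at day 7 held 3715, 4121 and 3798. Both sets lay above all 6 of the lower libraries and did not overlap them. EGFP+ IMs at day 14 reached 5336, 5040 and 5708 CPM. AMs held 4325, 4138 and 4443 CPM after PBS, 5774, 4907 and 5496 at day 14, and 4638, 5100 and 4860 at day 30. The 4 complexes followed this order of groups with small differences: complex II averaged 266 ± 6.17 CPM (SD, n = 3) in wild-type PBS IMs and 678 ± 56.7 in day 14 AMs, and complex I 1044 ± 56.9 and 2084 ± 195. Within complex II the 3 PBS AM libraries stood at 486, 483 and 486 CPM, and in complex III the day 14 IM libraries spread from 727 to 915. CPM compares libraries, not genes.

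**Figure D1:**
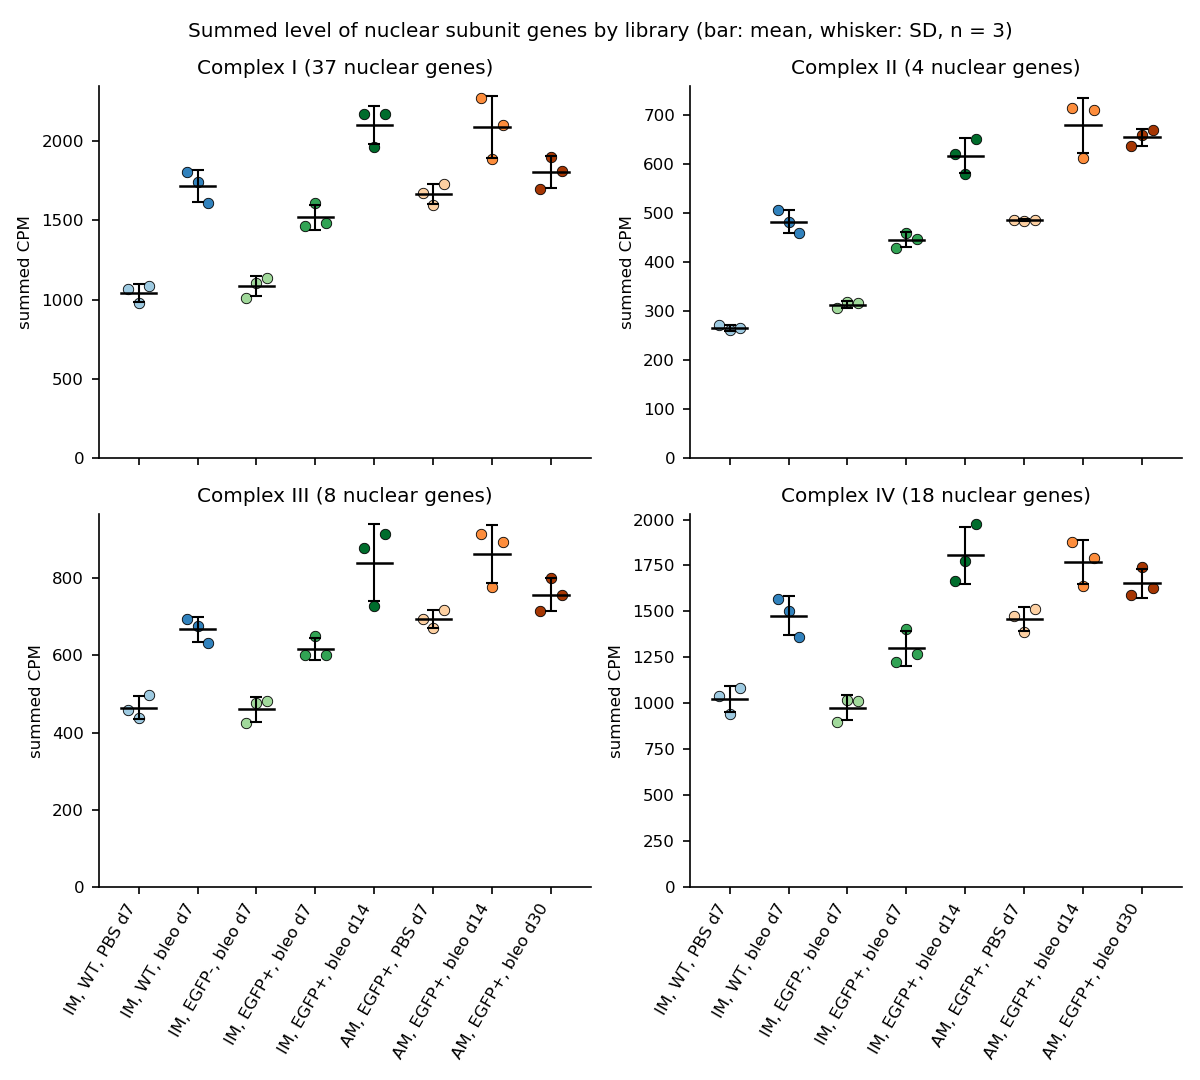
Summed CPM of the nuclear subunit genes of each complex (y axes) in every library, by group (x axis; IM, interstitial and AM, alveolar macrophages; points are libraries, bars means and whiskers SD, n = 3). Wild-type PBS IMs and EGFP- IMs lie lowest in all 4 panels, and both day 14 groups have the highest means in every panel, apart from complex II, where day 30 AMs (655) lie above day 14 IMs (617).

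Of the 60 members that reached 5 CPM in some group, 42 had their lowest mean in wild-type PBS IMs and 16 in EGFP- IMs. The highest mean was in day 14 EGFP+ IMs for 27, in day 14 AMs for 19, in day 30 AMs for 8, in PBS AMs for 3 and in injured wild-type IMs for 3. Members differed in how far they spread: Cox6b2 spanned 16.6-fold between its highest and lowest group, Ndufa12 4.96-fold and Sdhc, a membrane anchor of complex II, 3.56-fold. Per length of exon, Cox4i1 was the highest member in wild-type PBS IMs, at 164 RPKM (reads scaled by exon length and library total). Cox8a followed at 162 and Cox7a2l at 145. Lengths joined all annotated exons of a gene, so this order depends on the annotation.

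Injury raised most nuclear subunit genes in wild-type IMs at day 7. Of the 62 members tested, 53 were higher after bleomycin than after PBS and 2 were lower (edgeR quasi-likelihood test, adjusted p under 0.05); over all 15645 genes tested, 35.6% were higher and 34.5% lower. The members' median log2 change was 0.73, a 1.65-fold rise, beside a median of 0.0036 over all genes tested. Higher members numbered 33 of 36 in complex I, 4 of 4 in complex II, 6 of 8 in complex III and 10 of 14 in complex IV. In complex I, the 7 core subunits that carry electrons from NADH towards ubiquinone all rose, with a median of 0.72, and 26 of 29 accessory subunits rose, with a median of 0.84.

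Ndufv2, a core iron-sulfur subunit of complex I, stood at 30.3, 28.2 and 34.9 CPM after PBS and at 68.8, 61.5 and 59.4 after bleomycin. Every injured library was above every control, and the gene rose 1.97-fold (log2 0.98 ± 0.08 SE, adjusted p = 6.0e-10). The largest rise in complex I was in the accessory subunit Ndufa12, from 5.41, 4.64 and 6.07 CPM to 22.9, 19.2 and 15.9, a log2 change of 1.80 ± 0.15. Ndufa5 (1.49) and Ndufc1 (1.44), also accessory subunits, came next. In complex II, Sdhc rose from 36.8, 36.7 and 35.6 CPM to 94.1, 81.6 and 75.6 (log2 1.16 ± 0.08), while Sdha, the catalytic flavoprotein, rose by 0.60. Uqcrb, a small subunit at the quinone pocket of complex III, rose from 27.2, 21.3 and 32.7 CPM to 66.3, 60.5 and 61.8 (log2 1.17 ± 0.12). In complex IV, Cox7b rose by 1.17 and Cox5a by 1.05, while Cox4i1, the subunit at which ATP acts, rose by 0.40, from 253, 232 and 277 CPM to 362, 351 and 323.

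A minority of members did not follow. Uqcrfs1, the Rieske iron-sulfur protein that hands electrons on within complex III, stood at 78.6, 84.2 and 93.4 CPM after PBS and 90.1, 94.5 and 87.5 after bleomycin, and the groups overlapped (log2 0.04 ± 0.07, adjusted p = 0.578). Ndufb11, an accessory subunit of the membrane arm, gave -0.10 ± 0.07, Uqcrh, the hinge protein beside cytochrome c1, -0.04 ± 0.09, Ndufa6 0.05 ± 0.08 and Ndufb2 0.08 ± 0.17. Cox6b2 and Cox7a1, both under 3 CPM here, were not called either. Cox7a2l was lower in all 3 injured libraries, at 185, 183 and 166 CPM against 224, 199 and 222. Its log2 change was -0.31 ± 0.06 (edgeR adjusted p = 5.2e-05). The other lower member was Cox6a2, taken up with the isoforms. With all 24 libraries in a single fit, Cox7a2l did not pass the test.

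Transcripts of other cells moved with this comparison. The 10 neutrophil genes summed to 7708 to 9183 CPM in the PBS libraries and 1658 to 1721 after bleomycin, all 10 being lower, and none was at 0. The 11 lung epithelial genes, led by Scgb1a1 and Sftpc, summed to 4737 to 7093 CPM and 141 to 185 CPM, with 9 lower and 2 higher. All 8 B cell, all 8 fibroblast and all 8 nonclassical monocyte genes were lower as well. All 18 cell cycle genes were higher after bleomycin, and classical monocyte genes were higher for 6 of 8 and lower for the other 2. Their part in the result was not tested, and in bulk samples fewer cells of a type and less RNA per cell cannot be told apart.

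EGFP+ IMs carried more subunit transcripts than EGFP- IMs of the same stage. At day 7, 38 of 62 members were higher in the EGFP+ libraries and none lower, beside 17.2% higher and 17.6% lower of 14967 genes tested. None of the members was lower at an unadjusted p under 0.05 or by DESeq2 either, since every member's log2 difference was above 0, from 0.09 to 0.92, with a median of 0.42 (1.34-fold) against -0.0153 over all genes. CPM of 54 members was higher in every EGFP+ library than in every EGFP- library, beside 31.3% of genes. By complex, 25 of 36, 4 of 4, 5 of 8 and 4 of 14 members of complexes I, II, III and IV were higher. Leaving out single libraries gave 30 to 37 higher, and without the second EGFP+ library 3280 genes were called in all, against 5206.

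Ndufa5 stood at 9.82, 7.56 and 9.22 CPM in EGFP- and 14.1, 19.0 and 19.2 in EGFP+ libraries, a log2 difference of 0.92 ± 0.14 (edgeR adjusted p = 6.0e-04). Ndufa12 and Ndufc1 each differed by 0.75, Uqcr11 of complex III by 0.76 ± 0.13, Sdhc by 0.59 ± 0.10 and Cox7b by 0.63 ± 0.13. Uqcrfs1, which gave 0.04 after injury in wild-type IMs, was higher here by 0.37 ± 0.09. Cox4i1 was higher in every EGFP+ library, at 290, 338 and 307 CPM against 221, 249 and 244, but its 0.34 ± 0.13 missed the threshold (adjusted p = 0.0559). It passed when scaled by total counts, without the filter, with the replicate number as a block and with all 24 libraries in a single fit. The main fit also held the day 14 IM libraries. With only the 2 groups compared, Cox4i1 gave 0.38 ± 0.07 (edgeR adjusted p = 2.6e-04).

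This comparison shares no library with the wild-type one. Of the 38 members higher in EGFP+ IMs, 37 were also higher in injured wild-type IMs, which is 97.4% of these 38 and 69.8% of the 53; over all genes tested in both, the shares were 84.8% and 39.0%. The neutrophil genes were again lower on the side with more subunit transcripts, all 10 of them, at 2119 to 2902 CPM in EGFP+ and 4857 to 6394 CPM in EGFP- libraries, and all 18 cell cycle genes were higher in EGFP+ libraries. Dendritic cell genes were lower for 5 of 8. Their part was not tested.

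Between day 7 and day 14 the subunit genes rose further in EGFP+ IMs, across the 2 tables. Of 62 members, 56 were higher at day 14 and 1 lower, beside 25.3% higher and 26.9% lower of 14967 genes, with a median log2 change of 0.68 against -0.0046. Leaving out single libraries gave 50 to 56 higher. Scaling by total counts lowered all log2 changes by a common 0.22 and left 43 members higher and 1 lower, beside 13.8% higher and 35.9% lower of all genes. Among the 46 tested members whose gene models and overlaps were the same in both tables, 41 were higher and 0 lower, with a median of 0.70, and DESeq2 also called the same number of members higher as edgeR, 56 of 62.

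Ndufa4, named for complex I but found in complex IV, rose from 30.2, 31.1 and 31.7 CPM to 62.6, 46.0 and 54.5 (log2 1.03 ± 0.11). Ndufv2 rose by 1.02 and Ndufs8, another core iron-sulfur subunit, by 0.97 ± 0.11. Sdhc rose by 0.86 ± 0.10 and Cox4i1 by 0.99 ± 0.13. Uqcrh, at 59.0, 63.9 and 62.3 CPM at day 7, stood at 81.3, 88.0 and 141 at day 14, and Cox7a2l at 112, 129 and 121 against 143, 183 and 253. In both genes the day 14 libraries lay above all day 7 libraries but apart from each other. The lower member was Ndufb9, at 51.5, 48.6 and 48.5 CPM and then 30.1, 25.6 and 32.0 (log2 -0.53 ± 0.11). Its gene model differs between the tables, and in the second it overlaps the gene Gm49356 on the same strand, so this value cannot be told apart from the change of annotation.

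Markers of other cells fell over the same interval. The neutrophil genes went from 2119 to 2902 CPM at day 7 to 138 to 206 CPM at day 14, with all 10 lower, and the epithelial genes from 90.6 to 218 CPM to 32.4 to 61.4 CPM, with 10 of 11 lower. Dendritic cell genes were lower for 7 of 8, B cell genes for 5 of 8 and cell cycle genes for 13 of 18. None of these genes was at 0 in all 3 libraries of either group. Their part in the result was not tested.

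In EGFP+ AMs, subunit genes were higher at day 14 after bleomycin than after PBS, and fewer members of complexes I, III and IV were called higher at day 30. Both comparisons with PBS share the same 3 control libraries and cross the tables. At day 14, 48 of 62 members were higher and 3 lower (27.3% and 27.6% of 14706 genes), with a median of 0.50 against -0.011. At day 30, 34 were higher and 5 lower (24.8% and 23.1%), with a median of 0.29 against 0.0215. Complex II rose in full at both times, 4 of 4, with medians of 0.77 and 0.64, while complex III went from 7 of 8 higher at day 14 to 2 of 8 at day 30. Scaling by total counts left 38 higher and 3 lower at day 14 (18.0% and 37.9% of genes), and 21 higher and 6 lower at day 30 (19.0% and 29.7%). Leaving out single libraries gave 44 to 55 higher and 2 to 3 lower at day 14, and 23 to 32 higher at day 30. Of 46 members with the same gene models and overlaps, 35 were higher and 2 lower at day 14, and 26 and 4 at day 30.

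Ndufc2, an accessory subunit of complex I, stood at 34.3, 29.4 and 33.6 CPM after PBS, at 72.7, 59.2 and 65.6 at day 14 and at 44.4, 44.7 and 46.6 at day 30. The 3 groups did not overlap, and the day 14 rise was 1.21 ± 0.10 on the log2 scale (edgeR adjusted p = 2.1e-08). Sdhb, the iron-sulfur subunit of complex II, held its rise, with 68.3, 72.7 and 79.2 CPM, then 136, 110 and 143, then 119, 116 and 137 (log2 1.01 ± 0.11 and 0.87 ± 0.11). Uqcrq of complex III rose by 0.80 at day 14, Cox7a2 by 0.78 at day 14 and 0.69 at day 30, and Uqcrh and Ndufc1 by 0.68 and 0.85 at day 30. Ndufv1, the core subunit that binds NADH, gave 0.17 ± 0.09 at day 14 and was not called, but passed without the second day 14 library (adjusted p = 0.0139). The 3 members lower at day 14 were Ndufb9, with the caution above (-0.48), Cox6a2 and Cox6b2. At day 30, Ndufa4 (-0.32) and Ndufb8 (-0.28) were lower as well. The Ndufa4 call was lost without the first or the third day 30 library (adjusted p = 0.0509 and 0.0637), and the Ndufb8 call without either of these or the first or the third PBS library (adjusted p 0.0684 to 0.0963). Between 2 and 6 members were lower with single libraries left out. There were 2 without the third day 30 library, and 3 without the first day 30 or the third PBS library.

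Day 30 AMs lay below day 14 AMs. Both groups are in the second table, but their fit also held the PBS AM libraries of the first table. Of 62 members 25 were lower and 1 higher at day 30 (18.7% lower and 19.6% higher of 14706 genes), with a median of -0.21 against 0.0122. The lower ones were 17 of 36 in complex I, 4 of 8 in complex III and 4 of 14 in complex IV, and complex II had none. Leaving out the second day 14 library raised the count of lower members to 39, and leaving out the first day 30 library reduced it to 16. Scaled by total counts, 18 were lower and 2 higher, beside 14.0% and 23.2% of genes.

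Ndufb8, an accessory subunit often used as a protein marker of complex I, stood at 61.5, 58.0 and 59.6 CPM at day 14 and at 26.1, 32.0 and 26.9 at day 30. This was the largest drop, and it fell by 1.15 ± 0.10 on the log2 scale (edgeR adjusted p = 1.1e-07), to below the PBS libraries at 37.6, 35.4 and 38.9 CPM. Uqcrb fell by 0.78 and the complex I subunits Ndufs6 and Ndufs4 fell by 0.66 and 0.65. In complex IV, Cox7b fell by 0.49, Cox5b by 0.45 and Cox4i1 by 0.29, Cox4i1 not passing without the first day 30 library (adjusted p = 0.0533). Ndufa1 was the sole member higher at day 30, at 46.7, 54.9 and 47.9 CPM against 37.7, 29.4 and 37.3 (log2 0.44 ± 0.11).

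Of the 53 members higher in injured wild-type IMs, 45 were also higher in day 14 AMs, comparisons without a common library. That is 84.9% of the 53 and 93.8% of the 48, where all genes tested in both gave 46.7% and 64.8%. These shares were not recomputed with single libraries left out. The neutrophil genes summed to 136 to 212 CPM in PBS AMs, 93.3 to 116 at day 14 and 539 to 624 at day 30. Against PBS, 7 of 10 were lower and 1 higher at day 14, and 7 of 10 were higher and 0 lower at day 30. Camp was at 0 in every day 14 library. B cell genes summed to 800 to 962 CPM after PBS, 14.9 to 21.3 at day 14 and 380 to 482 at day 30, with 8 of 8 lower at day 14 than after PBS and 8 of 8 higher at day 30 than at day 14. Epithelial genes summed to 395 to 400, 85.4 to 87.3 and 155 to 212 CPM. Of 10 tested, 9 were lower at day 14 than after PBS. From day 14 to day 30, 8 were higher and 2 lower. Fibroblast genes summed to 10.6 to 13.5, 4.83 to 10.2 and 87.8 to 94.5 CPM, with 7 of 7 higher at day 30 than at day 14. Their part in the result was not tested.

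**Figure D2:**
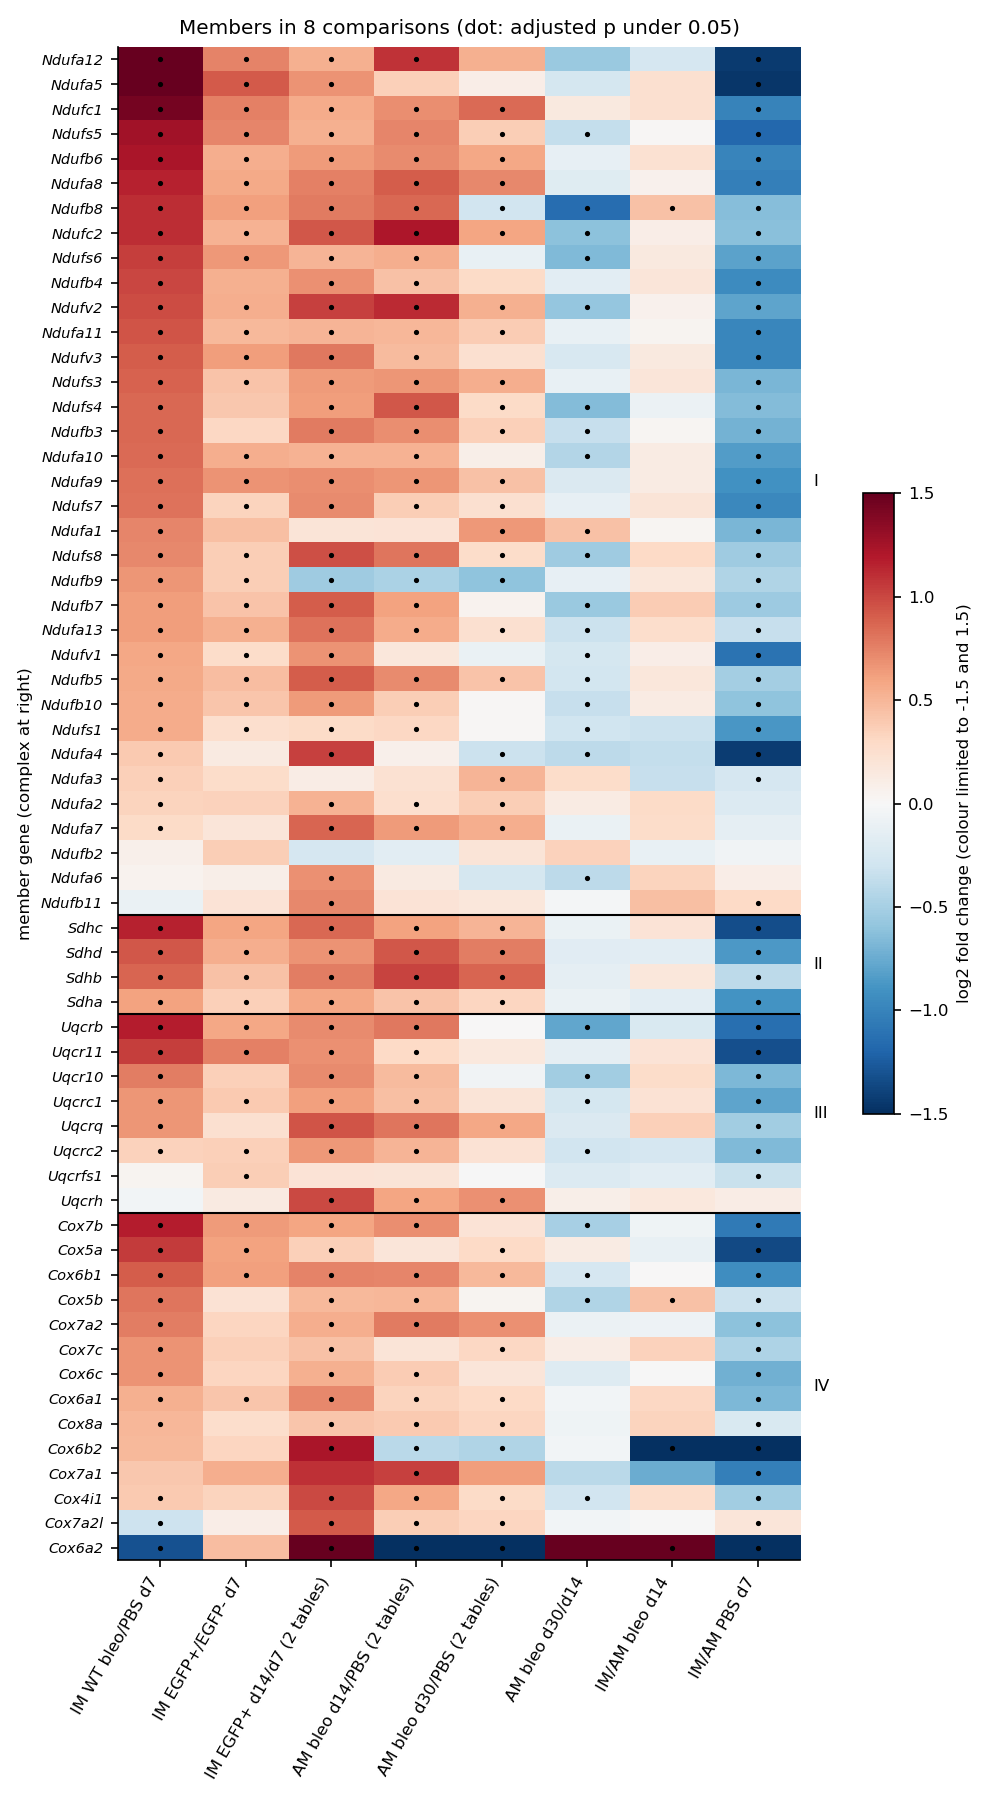
Log2 fold changes (colour, limited to -1.5 and 1.5) of the tested members, 1 left out (rows, by complex and sorted within each by the first column) in 8 comparisons (columns, first group over second); a dot marks an adjusted p under 0.05. Columns 1 to 5 are mostly red (over all 62 members 53, 38, 56, 48 and 34 were higher), the day 30 over day 14 column is pale blue with 25 lower, the IM over AM column at day 14 has 4 called members, and the last column is blue with 55 lower.

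After PBS, nuclear subunit genes were lower in wild-type IMs than in EGFP+ AMs. Of 62 members, 55 were lower and 2 higher, in a contrast in which 39.7% of 15983 genes were lower and 39.2% higher. The median was -0.71, against -0.0058 over all genes. All 7 core subunits of complex I were lower, as were 4 of 4 in complex II, 7 of 8 in complex III and 13 of 14 in complex IV. Gate, genotype and EGFP sort all differ here and cannot be told apart. Neutrophil genes summed to 7708 to 9183 CPM in these IM libraries against 136 to 212 in the AM libraries, and epithelial genes to 4737 to 7093 against 395 to 400. B cell, fibroblast and nonclassical monocyte genes were higher in IMs for 8 of 8 each, and cell cycle genes lower for 18 of 18. Their part was not tested.

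Cox5a, which faces the matrix in complex IV, stood at 43.8, 45.4 and 47.3 CPM in IMs and at 116 in each of the 3 AM libraries, and differed by -1.36 ± 0.06 (edgeR adjusted p = 1.3e-13). Ndufa5 differed by -1.46, Ndufa12 by -1.43, Ndufa4 by -1.42, Sdhc by -1.33 and Uqcr11 by -1.32. Cox4i1 differed by -0.52. The 2 members higher in IMs were Ndufb11, at 61.9, 59.1 and 62.0 CPM against 49.7, 45.4 and 53.8 (0.30 ± 0.07), and Cox7a2l at 0.19 ± 0.06. The Cox7a2l call was lost without the first or the third IM library or the second AM library (adjusted p 0.0548 to 0.105), without the filter and with all 24 libraries in a single fit.

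At day 14 after bleomycin, EGFP+ IMs and EGFP+ AMs had similar sums, and few members passed the test between them. Within the second table, 3 of 62 members were higher in IMs and 1 lower, beside 10.7% higher and 10.1% lower of 13793 genes, with a median of 0.14 against 0.0059. Libraries with the same number deviated together in these groups, and with that number as a block 5 were higher and 2 lower. Scaled by total counts, 1 was higher and 1 lower, beside 8.19% and 13.1% of genes. Leaving out single libraries gave 7 higher without the first IM library, and 1 without the second IM library or the second or the third AM library. The standard errors were wider here (median 0.15, against 0.08 in the PBS comparison), so a missed threshold does not show that levels were equal. The members called were Ndufb8 (0.44 ± 0.12), Cox5b (0.44 ± 0.12) and Cox6a2 higher in IMs, and Cox6b2 lower. The Ndufb8 and Cox5b calls (adjusted p = 0.0232 and 0.025) were lost without the second IM library or any AM library, and that of Ndufb8 also without the third IM library (adjusted p 0.0564 to 0.124). Cell cycle genes were lower in IMs for 14 of 18 and neutrophil genes higher for 4 of 8, and their part was not tested.

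The difference between the gates was itself tested between the 2 states, in a comparison added after seeing the data. The IM minus AM difference was larger at day 14 than after PBS for 52 of 62 members and smaller for none (24.9% and 21.9% of 15981 genes), with a median of 0.82 against -0.0085. DESeq2 gave 47 and 0, and leaving out single libraries gave 45 to 54 and 0. Each state lies within a single table, so a table effect common to IMs and AMs cancels. An effect of a changed gene model or overlap that differs between the gates need not cancel. The genotype and EGFP sort of the PBS IMs do not cancel, and the day differs between the states. Ndufa5 changed by 1.66 ± 0.25, Sdhc and Uqcr11 by 1.49 each (SE 0.14 and 0.21) and Cox5a by 1.21 ± 0.15. Members not called included Ndufb11, Ndufb2, Ndufa6, Uqcrh, Uqcrfs1 and Cox7a2l, at -0.23 to 0.19. Markers of some other cells moved the other way in the same contrast. Nonclassical monocyte genes were lower for 8 of 8 (median -2.92) and epithelial genes for 7 of 11 with 1 higher (-4.40). Fibroblast genes were lower for 6 of 8 (-4.31) and neutrophil genes for 6 of 10 (-2.95). Cell cycle genes were higher for 5 of 18 with 0 lower, and classical monocyte genes for 2 of 8, with 3 lower. Their part in the result was not tested.

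**Figure D3:**
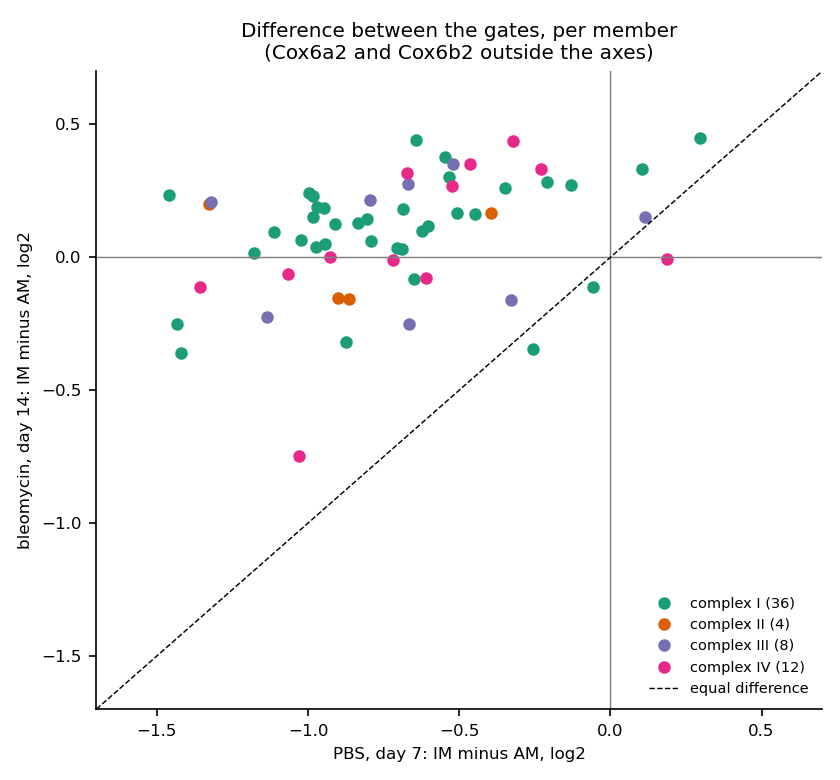
Each point is a member: its IM minus AM log2 difference after PBS at day 7 (x axis) against that at day 14 after bleomycin (y axis), coloured by complex, with a dashed line of equal difference. Most points lie left of 0 (median -0.71) and near or just above 0 in height (median 0.14), above the dashed line; Cox6a2 and Cox6b2 lie outside the axes.

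The complex IV isoforms were mostly of the common form. Cox4i1 averaged 254 ± 22.6 CPM (SD, n = 3) even in wild-type PBS IMs, whereas Cox4i2, its lung and hypoxia form, was at most 0.714 CPM in any library. Cox6a1, Cox6b1, Cox7a2 and Cox8a, the common forms of their subunits, followed the other members and rose in injured wild-type IMs and in EGFP+ IMs at day 14. Cox7b2, Cox8b and Cox8c, the testis and muscle forms, gave 0 counts or at most 0.203 CPM, and Ndufa4l2, a hypoxia-induced relative of Ndufa4, at most 0.372.

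Cox6b2, the testis form of the subunit that helps hold the complex IV dimer together, was an AM transcript in these libraries. PBS AMs held 20.1, 21.4 and 22.3 CPM, day 14 AMs 11.5, 13.6 and 17.0, and day 30 AMs 15.2, 16.9 and 10.9, whereas the 15 IM libraries held 1.19 to 4.30. All AM libraries lay above all IM libraries. The difference after PBS was -3.53 ± 0.16 (IM minus AM, edgeR adjusted p = 2.0e-13) and at day 14 it was -1.95 ± 0.36 (adjusted p = 0.00457). In AMs it was lower after bleomycin by -0.41 ± 0.16 at day 14 and -0.45 ± 0.16 at day 30 (adjusted p = 0.042 and 0.0286). The first call was lost without the first or second day 14 library or any PBS library (adjusted p 0.0633 to 0.17) and the second without the third day 30 or the second or the third PBS library (0.0682 to 0.162). With all 24 libraries in a single fit neither passed (adjusted p = 0.116 and 0.0819), nor did the first with the replicate number as a block (0.0553). Its day 14 value in EGFP+ IMs, 1.22 ± 0.37, came from overlapping groups and missed the threshold without the first day 7 or the second or the third day 14 library (0.0567 to 0.0658).

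Cox6a2, the heart and muscle form of subunit VIa, was low throughout and changed most. PBS AMs held 4.70, 4.11 and 6.14 CPM (112, 101 and 112 counts), day 14 AMs 0.135, 0.149 and 0.0647 (2, 2 and 1 counts), and day 30 AMs 0.546, 0.255 and 0.329 (9, 4 and 5 counts). The groups did not overlap, and over the summed counts the PBS level was 42.7 times that of day 14 (95% exact interval from counting error alone 18.1 to 132) and 12.8 times that of day 30 (8.0 to 21.9). The edgeR log2 changes were -5.17 ± 0.45 and -3.57 ± 0.36. The gene, at chr7:128205435-128206387 in GRCm38, lies within Itgad on the other strand, an integrin gene at 175 CPM in PBS AMs, 13.1 at day 14 and 13.2 at day 30. The strand setting of the counting is not given in the sources used here, and reads from the 2 genes cannot be told apart. Itgad did not exceed 2.02 CPM on average in any IM group, where Cox6a2 stood at 1.06, 1.28 and 2.57 CPM after PBS and 0.665, 0.504 and 0.868 after injury (log2 -1.31 ± 0.42), a call lost without the third PBS library (adjusted p = 0.11) or the second bleomycin library (0.0511). At day 14, IMs held 1.36, 2.36 and 1.29 CPM, 14.7 times the AM level (6.02 to 46.4).

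Cox7a1, the muscle form of subunit VIIa, was under 5 CPM in every library. It was higher in day 14 AMs (4.04, 2.23 and 3.56 CPM) than in PBS AMs (1.93, 1.63 and 1.98), by 1.03 ± 0.31 (edgeR adjusted p = 0.0102), and was lower in PBS IMs than in PBS AMs by 1.03 ± 0.35 (adjusted p = 0.0119).

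**Figure D4:**
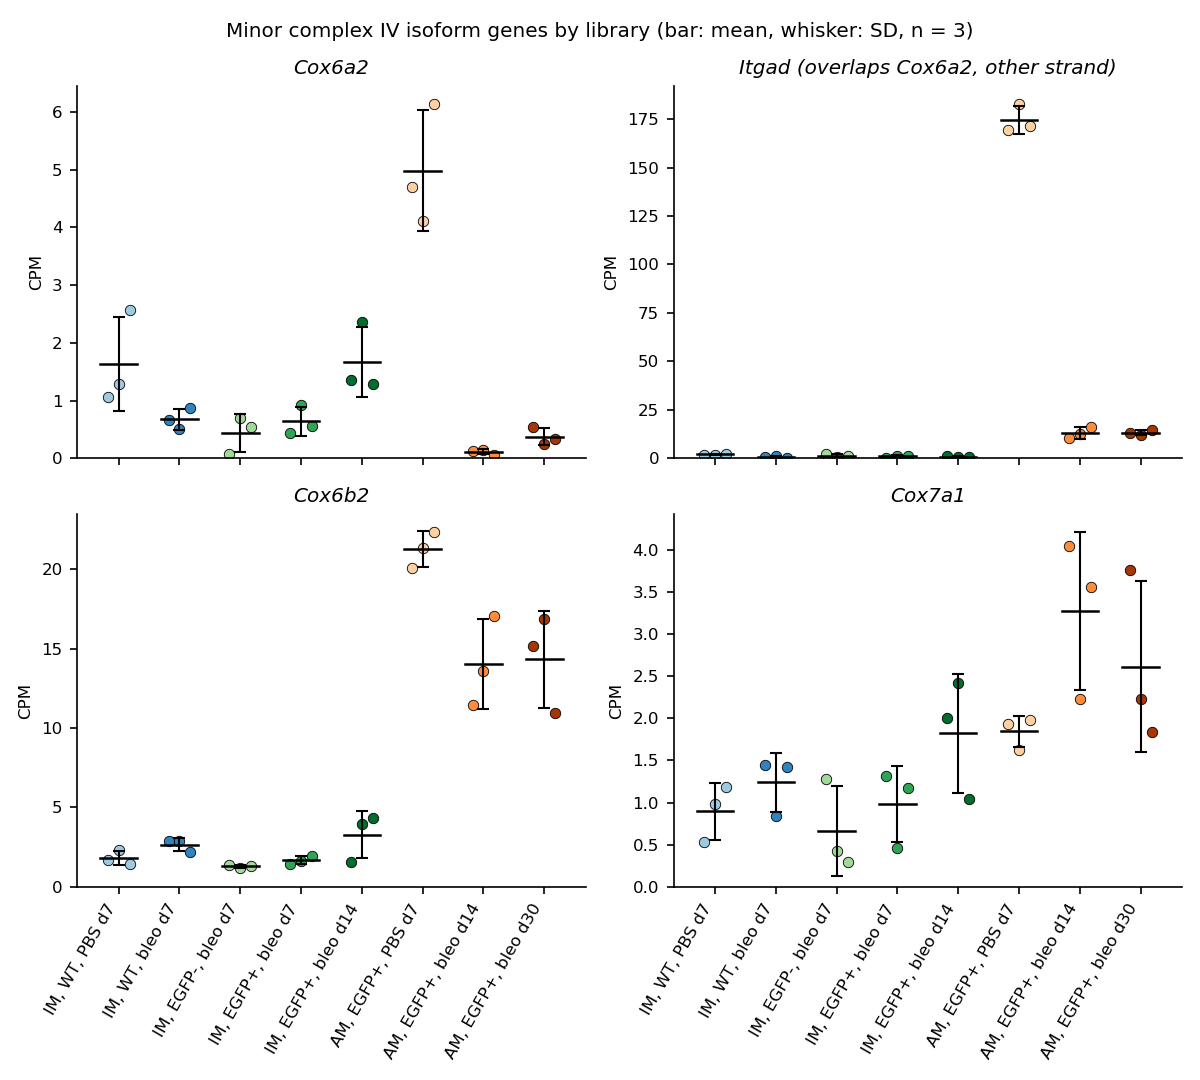
CPM (y axes) of the second-form complex IV genes Cox6a2, Cox6b2 and Cox7a1, and of Itgad, which overlaps Cox6a2 on the other strand, in every library by group (x axis; bars are means, whiskers SD, n = 3). Cox6b2 is high in the 9 AM libraries (10.9 to 22.3 CPM), and Cox6a2 and Itgad share a high level in PBS AMs that is absent from the injured AM groups.

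Other genes of oxidative phosphorylation were counted from lists set by function, with earlier results of these data known. ATP synthase genes kept close to complexes I to IV: 16 of 16 rose in injured wild-type IMs (median 0.73), 12 of 16 were higher and 0 lower in EGFP+ IMs at day 7 (0.40), and 15 of 16 were lower in PBS IMs than in PBS AMs (-0.71). Atpif1, which encodes the inhibitor that stops ATP synthase running backwards, rose by 1.44 ± 0.07 in injured wild-type IMs and by 1.0 ± 0.08 in day 14 AMs. Assembly factors moved less uniformly, with 29 of 46 higher and 4 lower after injury in wild-type IMs (0.56) and 12 higher and 4 lower in EGFP+ IMs at day 7 (0.24). Among electron carriers and other entry points, 13 of 18 rose in injured wild-type IMs and 1 fell. Cyc1, the haem subunit of complex III whose name keeps it out of the member list, rose by 0.97 ± 0.07, while Gpd2, the mitochondrial glycerol phosphate dehydrogenase, fell by 1.47 ± 0.07. Of 17 citric acid cycle genes, 12 rose and 2 fell there.

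The subunits encoded in the mitochondrion went another way in some comparisons. In injured wild-type IMs none of 12 tested was higher and 7 were lower, with a median of -0.39 (edgeR), where 53 nuclear members rose. mt-Nd2 fell by 0.75 ± 0.05 and mt-Nd5 by 0.45 ± 0.05, both membrane subunits of complex I. After PBS, 9 of 12 were higher in IMs than in AMs (median 0.45) and 0 lower, where 55 nuclear members were lower. In EGFP+ against EGFP- IMs at day 7, 3 of 11 were higher and 0 lower (0.41), and in AMs at day 14 against PBS 11 of 12 were higher (0.94). From day 14 to day 30 in AMs, 10 of 12 were lower (-0.63). Libraries were made by poly(A) selection, which captures mitochondrial transcripts by their short tails.

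Cytosolic ribosomal protein genes, another abundant housekeeping group, did not share the wild-type injury change, with 5 of 35 higher and 9 lower (-0.08), nor that of EGFP+ IMs at day 7, with 1 higher and 0 lower (0.10). They were higher at day 14 than at day 7 in EGFP+ IMs, 27 of 35 (0.62). Glycolysis genes rose with the members in injured wild-type IMs, 13 of 17, with 3 lower (0.41). Among 14 tested regulators of mitochondrial biogenesis, 3 were higher and 6 lower in injured wild-type IMs: Ppargc1b, a coactivator of mitochondrial genes, rose by 2.20 ± 0.20, and Gabpb1, a subunit of nuclear respiratory factor 2, fell by 0.87 ± 0.07. Gabpb1 was also lower in EGFP+ than in EGFP- IMs at day 7 by 0.80 ± 0.09.

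**Figure D5:**
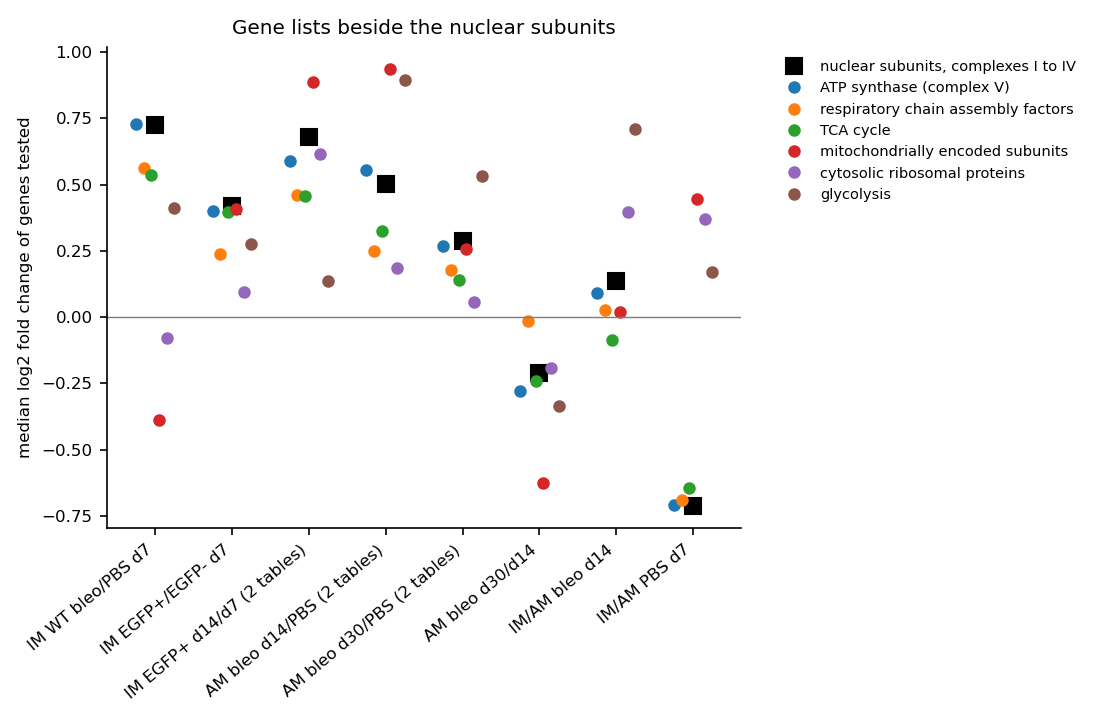
Median log2 fold change over the tested genes of each list (y axis) in 8 comparisons (x axis); black squares are the 62 nuclear subunits of complexes I to IV and coloured points the other lists. ATP synthase genes lie close to the squares throughout, while mitochondrially encoded subunits lie on the other side of 0 in injured wild-type IMs (-0.39 against 0.73) and between the PBS groups (0.45 against -0.71).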

How the data were processed

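The submitters' processing notes name HISAT2 2.1.0 (alignment, to GRCm38), featureCounts 1.6.3, Trimmomatic 0.38, SAMtools and FastQC 0.11.5, without their settings. The values deposited by the authors are whole-number counts per gene in 2 tables, of 15 and 9 libraries; the annotation releases, strand setting and treatment of multi-mapped reads are not given in the sources used here, and several small subunits have near-identical processed pseudogenes. A further 3 columns matched no sample and were not used. Tables were joined by gene identifier; Cox5b-ps and Ndufb1-ps, in 1 table only, stayed out. CPM was computed from library totals. Each comparison was fitted across all genes with edgeR 4.0.16 (TMM scaling, low-count filter, robust quasi-likelihood test, 2-sided, Benjamini-Hochberg threshold 0.05) and tested on simulated data. The wild-type IMs, the PBS groups and the day 14 groups were each fitted within 1 table. The 9 knock-in IM libraries shared a fit over both tables, and so did the 9 AM libraries. This held also where the 2 groups compared lay in 1 table, so EGFP+ and EGFP- IMs were tested with the day 14 IM libraries in the fit. Alternatives were total-count and RLE scaling, DESeq2 1.42.0, no filter, all 24 libraries, only the 2 groups compared, a replicate block, unchanged gene models, and leaving out each library. The design text says that the authors tested with DESeq2.

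The members to be named and the lists were chosen with earlier results of these data known, whereas membership followed the gene names. Named by rule were the core subunits, the complex IV isoform families, in each comparison the called members with the largest changes (at least 5 CPM), and the 2 genes of each list with the smallest p; the text gives a selection of these, and 1 member is counted but not reported here by name. Members that did not pass the test (Ndufb11, Ndufa6, Ndufb2, Uqcrh) and those given for the added comparison were chosen after their values were seen, as were the fold spans of Ndufa12 and Sdhc. Replicate numbers come from the sample titles. Deviations of same-numbered libraries correlated above 0.1 in every pair for the day 14 IM and AM groups alone (0.25, 0.15 and 0.20); the reported fit there has no block, and the blocked counts are given beside it. All other pairings failed this check, which does not show that those libraries came from separate animals.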

Additional observations from a re-analysis of the deposited data

Results flagged for a closer look

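The IM minus AM difference was larger at day 14 after bleomycin than after PBS for 52 members (edgeR test of the difference itself, in 12 libraries), a comparison chosen after seeing the data. The single members given for it were Ndufa5 (log2 1.66), Sdhc (1.49), Uqcr11 (1.49), Cox5a (1.21) and Cox6a2 (5.47), the last with 1 or 2 counts in each day 14 AM library. Cox6a2 also lies within Itgad on the other strand, a gene high in PBS AMs, and their reads cannot be told apart. Over all 15981 genes tested, 24.9% differed in this direction. Markers of other cells moved in the same contrast, among them all 8 nonclassical monocyte genes, which were lower. No group has more than 3 libraries, so single libraries were not tested for standing apart.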

How the results depend on the processing

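Counts of members kept within 1.5 times of their main value under RLE scaling and DESeq2 in all 9 comparisons. Total-count scaling gave 21 members higher for day 30 AMs against PBS, 2 for day 30 against day 14 and 1 for IMs against AMs at day 14. It also moved 3 medians by more than the replicate spread, to 0.45 (IM day 14 against day 7), 0.32 (AM day 14) and 0.17 (AM day 30). Fitting all 24 libraries gave 1 lower in wild-type IMs, 1 higher between the PBS groups, and for IMs against AMs at day 14 10 higher, 5 lower and 5906 genes called. Without the filter 1 member was higher between the PBS groups. Genes with the same coordinates, with or without the same overlaps, gave 0 lower for day 14 against day 7.

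The replicate block gave 5 higher and 2 lower for IMs against AMs at day 14, where same-numbered libraries deviated together. Elsewhere the labels do not say whether same-numbered libraries share animals, and their deviations did not all correlate above 0.1. There the block left 53, 42, 56, 48, 36 and 1 members higher in the order of the report. It left 2 higher between the PBS groups and 54 for the added difference.

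Leaving out single libraries gave ranges of 1 to 2 lower in wild-type IMs; 3280 to 4221 genes called for EGFP+ against EGFP-, lowest without the second EGFP+ library; 2 to 6 lower for day 30 AMs; 1 to 2 higher and 16 to 39 lower for day 30 against day 14; 1 to 7 higher and 1857 to 3374 genes called for IMs against AMs at day 14; and 1 to 2 higher between the PBS groups. Uncalled values near 0 changed sign: in wild-type IMs Uqcrh gave 0.0001 (total counts), 0.0103 (no filter) and -0.1239 to 0.0689 without single libraries, Uqcrfs1 -0.0109 to 0.1222 and Ndufa6 -0.0219 at the lowest. With total counts Ndufv1 gave -0.0134 in AMs at day 14. The cause was not tested. With 3 libraries a group and 1 to 2 counts in some, Cox6a2 is limited by depth.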
